A study of Danio rerio with 6 samples.

Results

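The cluster of miR-183, miR-96 and miR-182 was followed through small RNA libraries of the adult zebrafish telencephalon, from control and from injured hemispheres. Its members were taken by identifier and are 3 of the 434 annotated miRNA loci in the count files. They are MIR183 (ENSDARG00000080467), MIR96 (ENSDARG00000083126) and mir-182 (ENSDARG00000081095, named dre-mir-182). Among the 331 loci with a gene symbol, no other carries any of these miRNA numbers, and loci without a symbol could not be checked. RefSeq annotates another build (GRCz12tu) than the one the reads were counted on (GRCz11). In it the 3 genes stand in the order mir-183, mir-96, mir-182 with 0 other genes between them. They lie there between a long non-coding RNA gene and nrf1, which encodes a transcription factor.

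Total RNA came from whole telencephalic hemispheres, the left and right sides of the front part of the forebrain, and 3 libraries were sequenced from each group. The labels describe the control hemispheres as healthy and without treatment, and the injured ones as having the injury as treatment. Per the methods of the study, a needle was pushed into 1 hemisphere and the uninjured hemisphere served as control, with RNA taken days after the lesion. For its messenger RNA libraries the study names the contralateral (opposite) hemisphere as that control. The sources used here give neither the strain nor the exact age or sex of the fish, and they do not link a control library to an injured library of the same fish. The control libraries held 2475462 to 4008607 reads at miRNA loci and the injured libraries 11473850 to 14545864. Depth therefore differed with the group, and effects of the group and of depth on a level cannot be told apart. The brain label could be checked against miRNAs of neural cells: the 20 loci of a neuron list summed to 126643 to 147681 reads per 1000000 miRNA reads (RPM) in the 6 libraries. Most of that sum was dre-mir-132-2, with 119549 to 138664 RPM, followed by mir128-1 with 4633 to 6756 RPM. The loci counted for mir-124, the best known neuronal miRNA, had at most 21.8 RPM each, and mir218a-1 had 0 reads. mir-124 has several loci, and per the methods a mapping quality limit was set, which drops reads that fit several places. Whether this lowered the mir-124 counts was not tested.

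The miRNAs of this cluster are processed from a common precursor transcript that is conserved across vertebrates. They are best known from sensory cells, among them photoreceptors, hair cells of the inner ear, olfactory sensory neurons and cells of the pineal organ. The seeds of miR-96 and miR-182, the stretch of a miRNA that pairs with its targets, overlap closely, whereas the seed of miR-183 differs. In humans and mice, mutations in the seed of miR-96 cause hearing loss. In mammals miR-182 and miR-96 repress the transcription factor FOXO1.

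mir-182 was the most abundant member in each library, and it was far higher in 2 of the 3 injured libraries. It had 4435, 5065 and 2463 reads in control 1, 2 and 3, against 153470, 14453 and 335542 reads in injured 1, 2 and 3. Scaled to the reads at miRNA loci, these were 1689, 1264 and 995 RPM in the controls and 10551, 1254 and 29244 RPM in the injured libraries. Injured 1 and injured 3 lay above the highest control library by 6.25-fold and 17.3-fold. Injured 2 lay inside the range of the controls, so the groups overlapped. By its rank among the loci of a library, mir-182 was at place 43, 49 and 53 in the controls and at place 18, 51 and 9 in the injured libraries. The group means were 1316 ± 350 RPM in control and 13683 ± 14256 RPM in injured libraries (SD, n = 3 each). The SD of the injured group was thus larger than its mean.

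MIR183 was likewise highest in injured 3 and next highest in injured 1, at a lower level than mir-182. Its reads came to 195, 142 and 120 RPM in control 1, 2 and 3 and to 920, 145 and 2446 RPM in injured 1, 2 and 3. Injured 1 and injured 3 exceeded the highest control library by 4.73-fold and 12.6-fold, and injured 2 was at 0.744 of it. The group means were 152 ± 38.3 RPM and 1170 ± 1171 RPM (SD, n = 3 each).

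MIR96 was the rarest member, and its counts in the control libraries were small. Control 1, 2 and 3 held 30, 19 and 11 reads, and injured 1, 2 and 3 held 814, 84 and 1575. As RPM with 95% exact (Clopper-Pearson) intervals, the controls had 11.4 (7.71 to 16.3), 4.74 (2.85 to 7.40) and 4.44 (2.22 to 7.95). Injured 1, 2 and 3 had 56.0 (52.2 to 59.9), 7.29 (5.81 to 9.02) and 137 (131 to 144) RPM. Such intervals cover counting error only, since reads copied by PCR are not independent molecules. The interval of injured 2 overlapped that of each control library, whereas those of injured 1 and injured 3 lay above all of them.

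**Figure D1:**
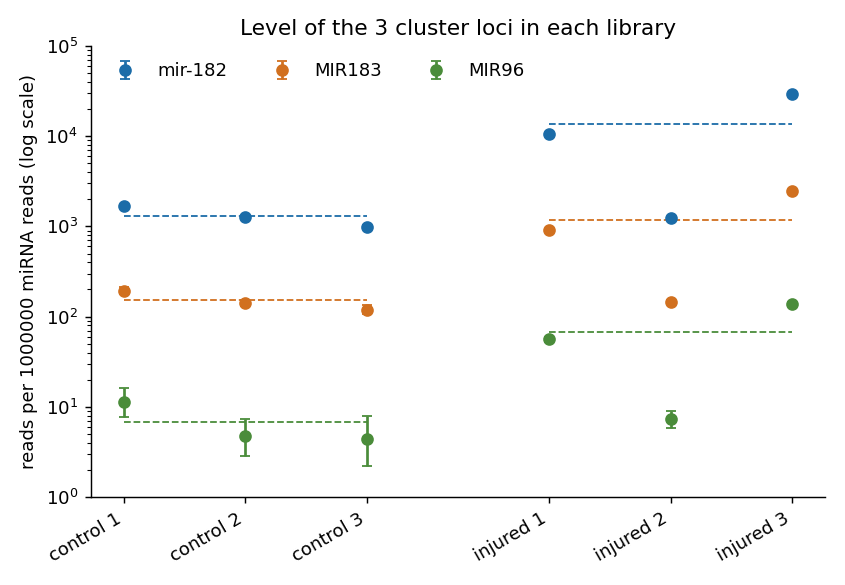
Level of mir-182, MIR183 and MIR96 in each of the 6 libraries, in reads per 1000000 miRNA reads on a log axis. Points are libraries, bars are 95% exact intervals of the counts and dashed lines are group means. All 3 loci were highest in injured 3 and next highest in injured 1, and injured 2 lay among the controls.

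Together the 3 loci took 0.189%, 0.141% and 0.112% of all miRNA reads in control 1, 2 and 3. In injured 1, 2 and 3 they took 1.15%, 0.141% and 3.18%. The 95% exact interval of injured 2, 0.138% to 0.143%, overlapped that of control 2, 0.137% to 0.145%. If the 3 loci were counted as 1, they would have ranked 41, 47 and 51 in the control libraries, 17 in injured 1, 50 in injured 2 and 9 in injured 3. The cluster was thus a minor part of the profile in the controls and in injured 2, and among the 10 most abundant entries in injured 3. The share of injured 3 was 22.6 times that of injured 2 and 2.76 times that of injured 1. Mean shares were 0.147% ± 0.0392 in control and 1.49% ± 1.55 in injured libraries (SD, n = 3 each), a difference of 1.34 percentage points. An exact permutation test over the libraries gave a two-sided p of 0.3, where 3 against 3 libraries cannot go below 0.1. The difference was 2.02 percentage points without injured 2 and 0.499 without injured 3. In bulk tissue, more cells that express the cluster and more of its RNA per cell cannot be told apart.

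The study itself followed up miR-182 and reported its level as increased after injury, by a smaller fold change than the edgeR estimate given below. Injured 2 was also compared with the other injured libraries at 2 further miRNAs that the study followed up. mir-31 had 48.4, 46.9 and 42.4 RPM in control 1, 2 and 3 and 266, 271 and 221 RPM in injured 1, 2 and 3. mir146a, an immune-related miRNA, had 855, 1117 and 896 RPM in the controls and 5331, 4240 and 4672 RPM in injured 1, 2 and 3. At both loci injured 2 lay with the other injured libraries, and the groups did not overlap. These loci were picked for their known rise, so their values only describe the libraries. MIR27B (ENSDARG00000082462), which edgeR called higher, was lowest in injured 2 among the injured libraries. It had 602, 458 and 564 CPM (counts per 1000000 after scaling) in injured 1, 2 and 3 and 369 to 403 CPM in the controls. MIR27B was named for its likeness to the cluster over all libraries, so its low place in injured 2 goes with that choice. Injured 1, 2 and 3 held 14545864, 11529705 and 11473850 reads, and the part of depth in the values was not tested.

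**Figure D2:**
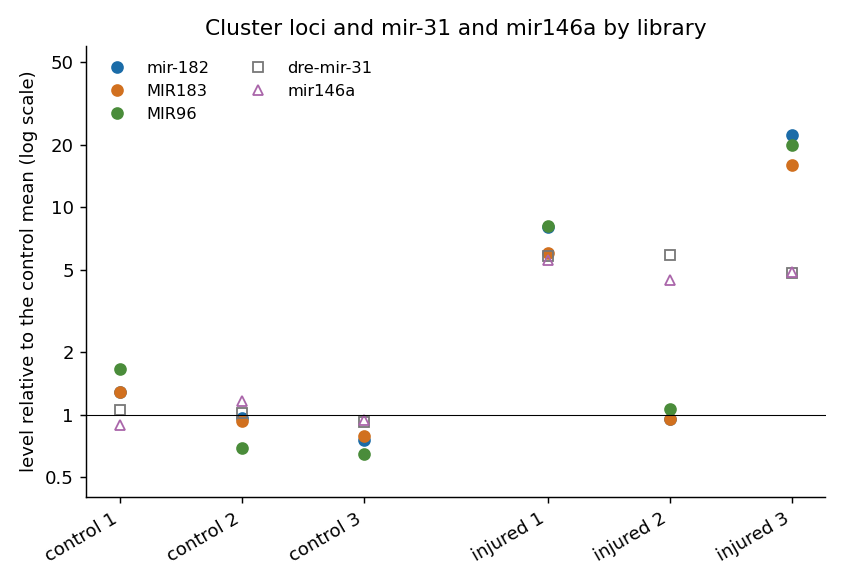
Level of the 3 cluster loci (filled circles) and of dre-mir-31 and mir146a (open symbols) in each library, divided by the mean of the 3 control libraries, on a log axis. In injured 2 the cluster loci stood at 0.951 to 1.06 of the control mean, while mir-31 and mir146a lay near their values in injured 1 and injured 3.

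The loci were next compared within each library, where depth and scaling cancel. mir-182 made up 89.1%, 89.6% and 88.9% of the cluster reads in control 1, 2 and 3, and 91.5%, 89.2% and 91.9% in injured 1, 2 and 3. MIR183 made up 10.3%, 10.1% and 10.7% in the controls and 7.98%, 10.3% and 7.69% in the injured libraries. The libraries with much of the cluster thus held relatively more mir-182 and less MIR183. The 95% exact intervals of the MIR183 share were 7.85% to 8.11% in injured 1 and 7.60% to 7.77% in injured 3. Both lay below those of the other 4 libraries, which ran from 9.29% at the lowest bound to 11.9% at the highest. The share of injured 2 (9.83% to 10.8%) overlapped that of each control library.

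As means over libraries, the mir-182 share was 89.2% ± 0.363 in control and 90.9% ± 1.47 in injured libraries (SD, n = 3 each), and the MIR183 share was 10.4% ± 0.334 and 8.65% ± 1.43. The differences were 1.66 and −1.70 percentage points, with two-sided exact permutation p of 0.2 and 0.3, both 0.45 after Benjamini-Hochberg adjustment over the 3 loci compared. The shares add up to the whole and MIR96 is a small part, so these differences mirror each other and are not separate results. Neither comparison could pass 0.05 in this design. The MIR96 share was 0.603%, 0.336% and 0.397% in control 1, 2 and 3 and 0.485%, 0.518% and 0.431% in injured 1, 2 and 3. The injured values lay inside the range of the controls, with a difference of 0.033 percentage points (two-sided exact permutation p = 0.7, adjusted 0.7), and the sign of this difference turned without control 2 (−0.022).

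**Figure D3:**
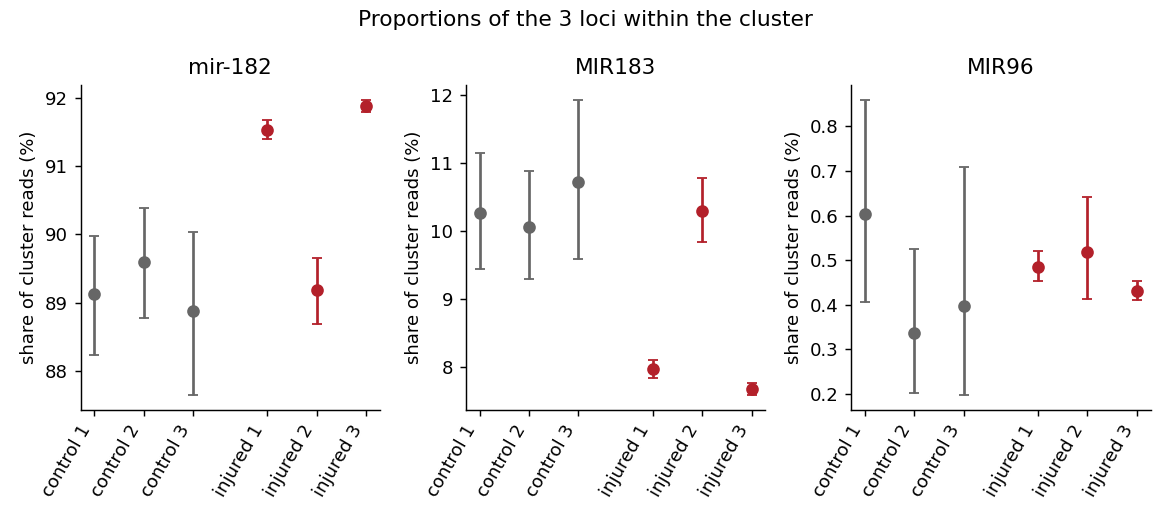
Share of the cluster reads at mir-182, MIR183 and MIR96 in each library, in percent, with 95% exact binomial intervals (control grey, injured red). The axes do not start at 0. Injured 1 and injured 3 stood apart at mir-182 (91.5% and 91.9%) and MIR183 (7.98% and 7.69%), and injured 2 lay among the controls.

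These shifts in proportion were small beside the shifts in level. The reads of the whole cluster, as RPM, differed 28.4-fold between the highest and the lowest of the 6 libraries. Over the same libraries the ratio of mir-182 to MIR183 reads differed 1.44-fold. That ratio was 8.68, 8.90 and 8.29 in control 1, 2 and 3 and 11.5, 8.66 and 12.0 in injured 1, 2 and 3. On the log2 scale, the SD over the 6 libraries was 2.02 for mir-182, 1.80 for MIR183 and 2.04 for MIR96 as levels in RPM. The SD of the log2 ratio was 0.231 for mir-182 per MIR183, 0.300 for mir-182 per MIR96 and 0.366 for MIR183 per MIR96. Over the 6 libraries the 3 loci therefore varied mostly together. Among the control libraries alone, the SD of log2 RPM was 0.382 for mir-182, 0.354 for MIR183 and 0.761 for MIR96. The SD of the log2 ratio there was 0.0518 for mir-182 per MIR183, 0.437 for mir-182 per MIR96 and 0.433 for MIR183 per MIR96. With MIR96 the ratios thus varied more there than the levels of mir-182 and MIR183. Both ratios with MIR96 rest on its small counts in the controls.

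The spread between the injured libraries was compared over all loci. Tested were the 188 loci with a mean normalised count above 10, and levels were taken as log2 of counts per 1000000 after scaling by the trimmed mean of M values (log2 CPM). The SD of log2 CPM among the 3 injured libraries was 2.33 at mir-182, 2.16 at MIR96 and 2.09 at MIR183, against a median of 0.131 over all tested loci. Only 4 tested loci had an SD above 1 there. The only one outside the cluster was mir459, with an SD of 2.14, which had 4, 12 and 104 reads in injured 1, 2 and 3 and also varied in the controls (SD 1.47). The next 2 loci, mir429b and a MIR200B locus (ENSDARG00000081868), had SDs of 0.564 and 0.559. Among the 3 control libraries the members were less extreme, with SDs of 0.378 at mir-182, 0.353 at MIR183 and 0.741 at MIR96 beside a median of 0.135, and they ranked 24, 31 and 7.

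**Figure D4:**
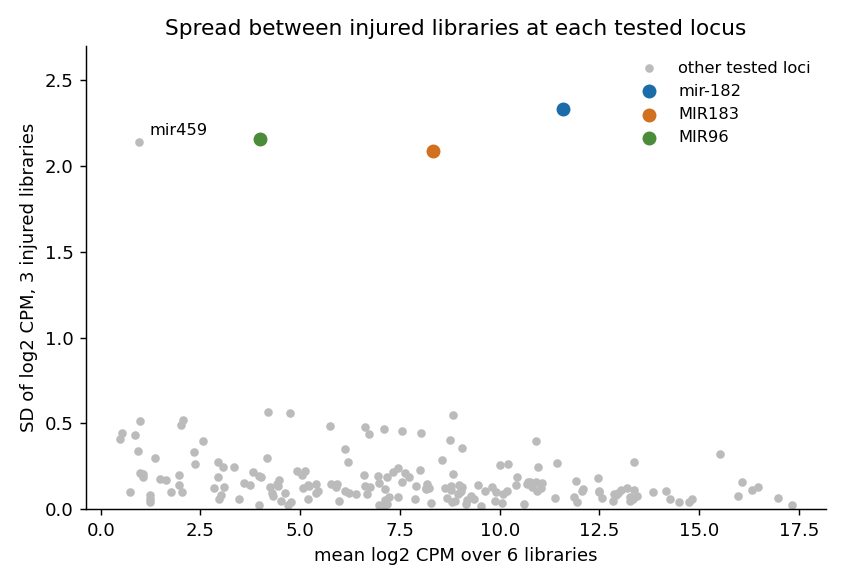
SD of log2 CPM among the 3 injured libraries against mean log2 CPM over the 6 libraries, for each of the 188 tested loci. mir-182, MIR96 and MIR183 lie at 2.33, 2.16 and 2.09, and the only other locus above 1 is mir459, a locus with few reads.

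Injured and control libraries were compared at all 188 loci with edgeR's quasi-likelihood test and Benjamini-Hochberg adjustment, and a locus was called at an adjusted p below 0.05. None of the 3 members was called, beside 24 of all 188 loci (12.8%), with 41 loci below 0.05 before adjustment. By size, the members had the 3 largest positive fold changes of all tested loci. The log2 fold change was 3.36 for mir-182 (SE 0.97, 95% interval 1.08 to 5.64, edgeR adjusted p = 0.0732). It was 2.92 for MIR183 (SE 0.88, 95% interval 0.84 to 5.0, edgeR adjusted p = 0.0842) and 3.29 for MIR96 (SE 1.06, 95% interval 0.80 to 5.78, edgeR adjusted p = 0.0951). Before adjustment the edgeR p was 0.0101, 0.0125 and 0.0167, which put the members at places 26, 28 and 33 of 188. Each was higher in 2 of 3 injured libraries and inside the control range in the third. By contrast, 49 of the 188 loci (26.1%) had all 3 injured libraries on 1 side of the 3 controls, and 0 of the 3 members did.

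The calls of the members depended on injured 2 and on the tool. Without injured 2, edgeR called all 3, with log2 fold changes of 3.90 for mir-182 (SE 0.44, edgeR adjusted p = 0.00279), 3.45 for MIR183 (SE 0.42, edgeR adjusted p = 0.00363) and 3.83 for MIR96 (SE 0.53, edgeR adjusted p = 0.00519), beside 20 calls among 185 loci (10.8%). Leaving out a library because of its value for the outcome is no test of the injury, so these values only show how much it weighs. Without injured 3 the log2 fold changes were 2.10, 1.74 and 2.18, and no member was called. With all 6 libraries DESeq2 called all 3 members after Benjamini-Hochberg adjustment (adjusted p = 0.00254, 0.0268 and 0.0238 for mir-182, MIR183 and MIR96), beside 31 of 188 loci (16.5%). With Bonferroni adjustment, the correction named in the methods of the study, DESeq2 called mir-182 alone (adjusted p = 0.0483), beside 19 of 188 loci (10.1%). limma-voom called no member, with smaller log2 fold changes of 2.47, 2.17 and 2.58 for mir-182, MIR183 and MIR96 (limma adjusted p = 0.349, 0.349 and 0.469), beside 18 of 188 loci (9.57%). edgeR with robust empirical Bayes also called none (edgeR adjusted p = 0.245, 0.265 and 0.293), beside 21 of 188 loci (11.2%).

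The size of the change depended most on whether fold changes were shrunk. With a prior centred on 0, an option of DESeq2 that pulls uncertain fold changes towards 0, the log2 fold change was 1.18 for mir-182, 0.91 for MIR183 and 0.87 for MIR96. That fit called mir-182 (DESeq2 adjusted p = 0.00814) and not MIR183 (0.0549) or MIR96 (0.0621), beside 28 of 188 loci (14.9%). The fold change that the study gave for miR-182 was near the value of this fit and well below that of edgeR. The reason for the difference from the study was not tested.

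**Figure D5:**
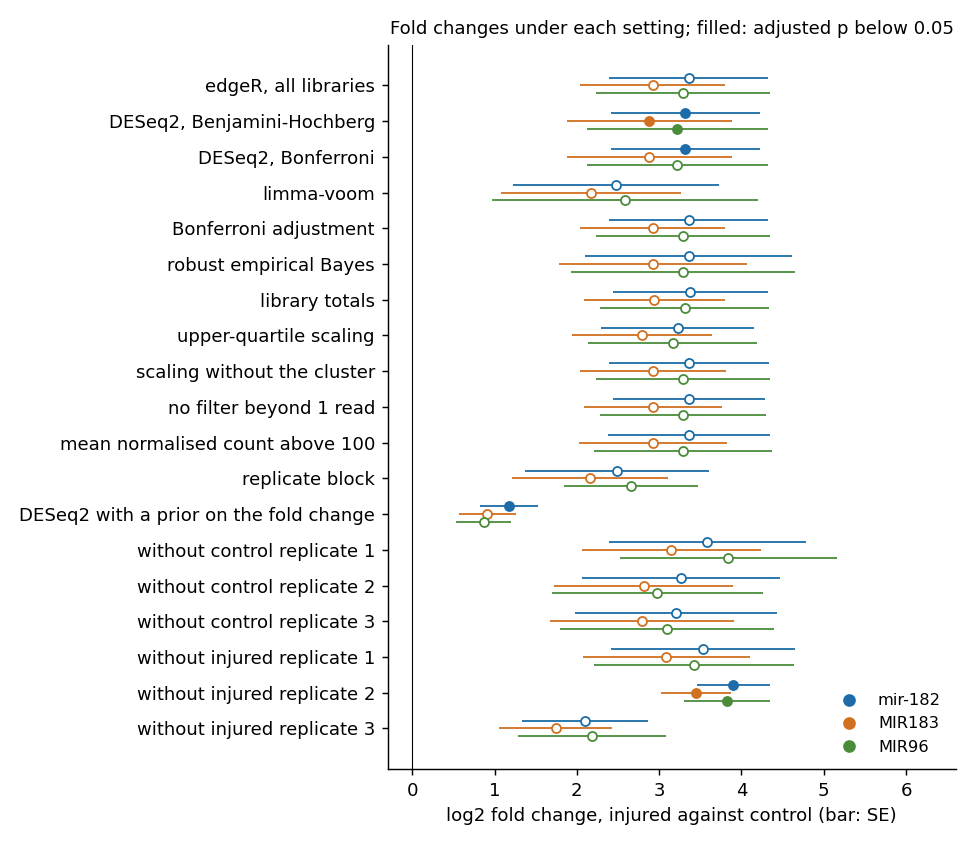
Log2 fold change of injured against control libraries for the 3 loci under each setting, with SE bars. Filled points have an adjusted p below 0.05. All points lie above 0, at 2.92 to 3.36 with all libraries in edgeR, at 0.87 to 1.18 with the prior on the fold change and at 1.74 to 2.18 without injured 3.

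Other loci were searched for the pattern of the cluster by Pearson correlation of log2 CPM with the summed cluster over the 6 libraries, given as a description because the points share libraries and depth. The members had r of 0.990 to 1.0. Each is part of the sum, and mir-182 makes up most of it, so its r was fixed by construction. The median of the other loci was 0.099. The 5 most alike were mir460 (r = 0.985), MIR140 (0.908), dre-mir-124-1 (0.886), MIR27B (ENSDARG00000082462, 0.883) and dre-mir-2184 (0.805). mir460 had 231, 236 and 228 CPM in control 1, 2 and 3 and 295, 242 and 330 CPM in injured 1, 2 and 3. Like the cluster, mir460 and dre-mir-124-1 were highest in injured 3 and next in injured 1. dre-mir-2184 was highest in injured 3 and next in control 1, whereas MIR140 and MIR27B were highest in injured 1. The level of these 5 loci spanned 0.421 to 0.706 on the log2 scale between the lowest and the highest library, against 4.32 to 4.85 for the members. Of the 5, edgeR called MIR27B (log2 fold change 0.48, SE 0.12, adjusted p = 0.0376).

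miRNAs of other cells that a hemisphere sample could hold were set beside the cluster. The 9 loci typical of other epithelia (the mir-200 family with mir-141 and mir-429, mir-203 and mir-205) summed to 1602, 1780 and 1482 RPM in control 1, 2 and 3 and to 1324, 1768 and 2156 RPM in injured 1, 2 and 3. Injured 3 was highest in this list too, but injured 1 was lowest, unlike in the cluster. edgeR called 0 of the 9 loci, beside 24 of all 188 tested loci (12.8%), a share at which so short a list says little. Their median log2 fold change was 0.06, beside 0.03 over all tested loci. The most abundant members were mir203b, with 331, 524 and 453 RPM in the controls and 350, 468 and 714 RPM in injured 1, 2 and 3, and dre-mir-205, with 303, 507 and 363 RPM in the controls and 398, 434 and 645 RPM in injured 1, 2 and 3. Of the 9 loci, 3 were highest in injured 3 (both of these and MIR203B), 4 in control 1 and 2 in injured 2.

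Of the 4 loci typical of retinal pigment epithelium and choroid plexus, MIR204 was tested and not called. MIR211 and MIR184 had 0 reads in each library, and dre-mir-184-1 had at most 0.87 RPM. The list summed to 33.9 to 40.4 RPM in control and 35.0 to 41.5 RPM in injured libraries. The 6 loci of pituitary and other endocrine cells (mir-7 and mir-375) summed to 5870 to 6093 RPM and 5597 to 6191 RPM, with 0 of 4 tested loci called. Nearly all of that sum was mir-7, led by MIR7-1 with 3759 to 4108 RPM. Whether these mir-7 reads came from endocrine cells was not tested. Each mir-375 locus had at most 1.57 RPM in any library and was below the limit for testing. The leucocyte list had its highest sum, 4222 RPM, in injured 2, where the cluster was low, against 2606 RPM in injured 1 and 3804 RPM in injured 3. Its controls summed to 1306 to 2156 RPM, both tested loci (MIR142) were called higher, and MIR223 and mir150 had 0 reads. The erythrocyte list (MIR144 and MIR451A) summed to 2006 to 2506 RPM in control and 2326 to 2754 RPM in injured libraries, with 0 of 2 loci called. The muscle list summed to at most 6.19 RPM in any library, with 0 of 1 tested locus called and a MIR206 locus at 0 reads. Of the neural lists, edgeR called 1 of 19 tested neuron loci, in the lower direction, and 0 of 6 tested mir-9 loci. Over all 188 tested loci edgeR called 20 higher (10.6%) and 4 lower (2.13%). Lists this small would hold few or no calls at these shares, so their counts say little about the cell types. The part of other cells in the values of the cluster was not tested.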

How the data were processed

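Small RNA libraries were prepared by the authors from total RNA of hemispheres, with a small RNA kit per the methods and a total RNA kit with size selection per the labels. Per the methods of the study, the authors trimmed adaptors with Cutadapt, kept inserts of mature miRNA length, mapped them to GRCz11 with STAR and counted reads with HTSeq. The submitters' processing notes name BWA as a tool instead of STAR. No source used here gives versions. The deposited values are raw counts per miRNA locus, which join both arms of a hairpin. A mapping quality limit drops reads that fit several places. Reads outside miRNA loci, 11.4% to 12.3% of a library, were left out of library sizes. Gene symbols were given for 331 of 434 loci.

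Counts were fitted with edgeR 4.0.16 in R 4.3.3, with limma 3.58.1 and DESeq2 1.42.0 as alternatives. Tested loci had a mean normalised count above 10 after TMM scaling. SE is the fold change over the root of the F statistic, and log2 CPM used a prior count of 2. Shares were compared by exact permutation over libraries. Further loci were named by likeness to the cluster, by spread among injured libraries and by cell type lists. The members and lists were chosen with earlier results of these data known. The fits were also run on simulated counts, in which a changed locus had the same mean change in each injured library. That setting did not cover a rise in only some injured libraries. Replicate pairs differed by a chi-square of 42.8 to 1982 per degree of freedom, so none was a copy of another's counts. This cannot tell libraries of separate fish from repeated libraries of the same RNA. Per the methods, each hemisphere was processed separately for the messenger RNA libraries, and RNA for the small RNA libraries was prepared in the same way. No source used here says outright that the small RNA libraries came from separate fish. Without such a statement, p-values measure the spread between these libraries only.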

Additional observations from a re-analysis of the deposited data

How the results depend on the processing

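The prior on the fold change was chosen after seeing the data. All 18 alternatives kept the 3 fold changes positive, and 4 called mir-182, 2 MIR183 and 2 MIR96. DESeq2 called all 3 (log2 fold changes 3.32, 2.88 and 3.22 for mir-182, MIR183 and MIR96), and mir-182 also with Bonferroni adjustment (3.32) and with the prior (1.18). The cause of the difference between the tools was not tested. The adjusted p ran from 0.00254 to 1 for mir-182, 0.00363 to 1 for MIR183 and 0.00519 to 1 for MIR96. Leaving out 1 library gave 2.10 to 3.90 for mir-182, 1.74 to 3.45 for MIR183 and 2.18 to 3.84 for MIR96, with calls only without injured 2. Bonferroni adjustment of edgeR left 6 of 24 called loci by construction, and leaving out 1 library gave 10 to 24 calls, the lowest without control 1, control 3 or injured 3. Upper-quartile scaling moved the median log2 fold change by −0.12 and called 11 loci higher and 5 lower, against 20 and 4 with TMM.

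The cluster share differed by 1.19 to 1.38 percentage points with other denominators and by 0.499 to 2.02 without 1 library. Without 1 library the differences in share of cluster reads were 1.16 to 2.51 percentage points for mir-182, −2.52 to −1.21 for MIR183 and −0.022 to 0.11 for MIR96, the negative value without control 2. Pooled reads kept each sign.

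With the replicate number as a block, the log2 fold changes were 2.49, 2.16 and 2.66 for mir-182, MIR183 and MIR96, none called, with 22 calls over all loci. Deviations from group means correlated at 0.32, 0.12 and 0.082 between same-numbered libraries and at −0.20 to 0.064 between differently numbered ones. For each library the same-numbered partner thus had the highest value. Because no source used here links the libraries of a fish, the main fit did not pair them. Pairing was not excluded. Depth limits MIR96 most, with 11 to 30 reads in the control libraries.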
